A study of Mus musculus with 10 samples.

Results

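Oxidative phosphorylation ends in complexes III, IV and V of the inner mitochondrial membrane, and the nuclear genes that encode their subunits were followed here in lung tumours of KP and KPG1 mice. Members were taken by name from the deposited gene symbols: all symbols that begin with Uqcr for complex III, with Cox followed directly by 4, 5, 6, 7 or 8 for complex IV, and with Atp5 for complex V, leaving out symbols that contain -ps. The rule found 44 of 39017 genes, with 8 in complex III, 18 in complex IV and 18 in complex V, and left out 1 -ps symbol. It used names and no measured value.

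KP mice were of C57BL6/J background and carried the K-ras LSL-G12D allele over a wild-type allele and p53 Fl/Fl, and KPG1 mice carried Glut1 Fl/Fl in addition. Both received Ad5CC10-Cre into the trachea, an adenovirus whose Cre is driven from the promoter of CC10, a protein of the secretory club cells. Tumours were collected 20 weeks and 1 day later, dissociated and depleted of immune cells with beads against CD45, and polyadenylated RNA of the CD45- fraction was sequenced. The 10 libraries comprise 5 titled Control and 5 titled Glut1KO. The genotype label of the controls reads heterozygous for the floxed allele, whereas the text on the design speaks of wild-type Glut1. All 5 Control libraries were from males, Glut1KO replicates 1 to 3 were from females and replicates 4 and 5 from males, so that only the 2 male Glut1KO libraries can be set against controls of their own sex. A second number in the sample names, which may stand for a mouse, took 2 values over the Control libraries and 4 over the Glut1KO libraries, where replicates 4 and 5 share one. Separate animals were therefore not assured, and p-values measure the spread between these libraries.

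Library totals ran from 35.3 to 49.8 M counts. Levels are given as CPM, the counts of a gene scaled to a common library size with factors from the trimmed mean of M values (TMM), and levels of different genes were compared only as TPM, the same scale after division by exon length. Epithelial markers were high in all libraries, with a summed level of 22881 to 58452 CPM in controls and 40827 to 55557 CPM in Glut1-KO. A list of leukocyte markers that includes Lyz2 summed to 981 to 11340 CPM in controls and 1958 to 7894 CPM in Glut1-KO. Its lowest and highest sums, in Control replicates 2 and 3, fell in the libraries lowest and highest for the epithelial marker Sftpc (6325 and 36583 CPM). Itgam, also on the list, was at 1.38 to 4.14 CPM, and how much of the sum came from leukocytes was not tested. Of the 7 leukocyte markers tested, 4 were higher in Glut1-KO and 3 lower. Ptprc, the gene of CD45, had a log2 fold change of 1.47 (SE 0.25, limma adjusted p = 0.23) and Csf1r had 0.88 (SE 0.28, limma adjusted p = 0.484). The part of these markers in the members' values was not tested.

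Slc2a1, the gene of Glut1, was read first as a check of the labels. Its CPM in Control replicates 1 to 5 was 118, 86.6, 92.5, 103 and 73.2. In Glut1KO replicates 1 to 5 it was 60.2, 42.5, 34.6, 92.4 and 103. The 3 female libraries lay under every control, and the 2 male libraries labelled Glut1KO lay within the control range. The log2 fold change over all libraries was -0.62 (SE 0.29, limma adjusted p = 0.658). With only the 2 male Glut1KO libraries against the controls it was 0.06 (SE 0.19, limma adjusted p = 0.938). With only the 3 female ones it was -1.07 (SE 0.21, limma adjusted p = 0.144). The counts cover the whole gene and do not isolate the floxed part, and what is said of the libraries labelled Glut1KO replicates 4 and 5 carries this limit.

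Complex III takes electrons from ubiquinol and passes them to cytochrome c, and complex IV passes them on to oxygen. Both pump protons out of the matrix, and complex V, the ATP synthase, lets protons return through its membrane rotor and uses the rotation to make ATP. Part of complexes III, IV and V is encoded by mitochondrial DNA, and all 37 genes with mitochondrial symbols had 0 counts, so those subunits were not analysed here.

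Upstream sequence was read for the c-ring genes, since these are 3 genes for 1 protein and one of them, Atp5g2, was far lower in a pair of Control libraries than in the rest, and for Uqcrh, the most abundant complex III transcript per length. Each run holds the bases before the RefSeq start site (GRCm38.p6) up to the first base that an annotated exon of the gene covers, all on the minus strand, and capitals mark motif letters. The Atp5g2 run lies inside the annotated gene, since some of its transcripts begin at an exon further upstream, and the other 3 runs lie upstream of their genes. They are Atp5g1 at chr11:96075671-96075881, Atp5g2 at chr15:102671128-102671297, Atp5g3 at chr2:73911327-73911576 and Uqcrh at chr4:116075072-116075320.
Atp5g1: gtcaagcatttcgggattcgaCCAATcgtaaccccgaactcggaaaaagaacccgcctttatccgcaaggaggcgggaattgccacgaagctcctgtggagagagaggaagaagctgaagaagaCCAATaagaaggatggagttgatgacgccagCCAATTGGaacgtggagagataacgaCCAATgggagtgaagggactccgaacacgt
Atp5g2: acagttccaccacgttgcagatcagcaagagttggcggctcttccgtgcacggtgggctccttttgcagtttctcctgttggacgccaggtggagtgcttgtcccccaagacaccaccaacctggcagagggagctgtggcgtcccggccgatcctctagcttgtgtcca
Atp5g3: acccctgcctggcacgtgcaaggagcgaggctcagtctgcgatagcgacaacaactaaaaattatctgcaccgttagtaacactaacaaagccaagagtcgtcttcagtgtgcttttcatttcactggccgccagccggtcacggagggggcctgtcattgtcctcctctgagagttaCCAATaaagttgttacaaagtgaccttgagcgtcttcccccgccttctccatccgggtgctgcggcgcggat
Uqcrh: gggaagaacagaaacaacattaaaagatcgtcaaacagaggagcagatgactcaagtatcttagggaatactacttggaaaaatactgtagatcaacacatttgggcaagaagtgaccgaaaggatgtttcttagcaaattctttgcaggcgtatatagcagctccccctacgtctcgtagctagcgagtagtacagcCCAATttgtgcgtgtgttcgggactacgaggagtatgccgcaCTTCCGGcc
The letters searched, on both strands, were those of the CCAAT box, then CCGGAAG for ETS factors, then TGCGCA for NRF1, and finally GATGGCG for YY1. No one of these motifs contains another. In the stretches shown, Atp5g1 had 5 CCAAT matches, 2 of them overlapping on opposite strands, and Atp5g3 and Uqcrh had 1 each. Uqcrh also had 1 ETS match, and Atp5g2 had none of the 4 motifs there. In its window of 300 bases around the start, Atp5g2 had 1 NRF1 match, which lies outside the stretch shown. Over windows of 300 bases around the start, available for 34 of the 44 members, ETS letters were in 26.5% of members and 9.12% of all 27025 promoters. NRF1 letters were in 17.6% against 8.06%, YY1 letters in 11.8% against 3.66% and CCAAT in 55.9% against 37.9%. A match is a run of letters in this window and does not show that a factor binds there.

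Of the 44 members, 40 had counts enough to be tested. Cox7b2 and Cox8c, testis isoforms, and Cox8b, a heart and muscle isoform, had 0 counts in all 10 libraries, and Atp5l2, annotated as a processed pseudogene, had at most 19 counts. Atp5s and Atp5sl carry the Atp5 name but are not canonical subunits of the enzyme. No member differed between Glut1-KO and control in the limma test adjusted over all 15922 genes (0 of 40, against 0% of all genes tested). An unadjusted p under 0.05 was reached by 3 of 40 members, or 7.5%, namely Atp5f1, Atp5g2 and Cox7a1, against 7.68% of all genes. With edgeR it was reached by 1 of 40 members (Atp5f1), and with DESeq2 by 3 of 40 (Atp5f1, Cox4i2 and Cox7a1). The share of all genes with an unadjusted p under 0.05 was not counted for edgeR or DESeq2, so these member counts cannot be set against it. In 0 of 40 members did the 5 Glut1-KO libraries all lie on one side of the 5 controls, against 1.85% of all genes. DESeq2 called 0 of 40 members, against 1.32% of all genes (210 of 15922).

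Across all 10 libraries, the 3 complexes had medians near 0. The median log2 fold change was -0.03 in complex III, with 4 genes higher and 4 lower, 0.15 in complex IV, with 10 higher and 5 lower, and 0.10 in complex V, with 12 higher and 5 lower. The complex III median was 0.05 in edgeR and in DESeq2, so that its sign depended on the test. The median of all genes tested was -0.00, with 49.3% higher. Without Glut1KO replicate 2 or 3 the complex III median was 0.07 or 0.08. Without the tissue isoforms the complex IV median was 0.09, with 7 of 11 higher, and it was 0.09 among genes with a mean TPM of at least 20. Without Glut1KO replicate 4 the complex IV median was 0.04, and without replicate 5 it was 0.08.

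**Figure D1:**
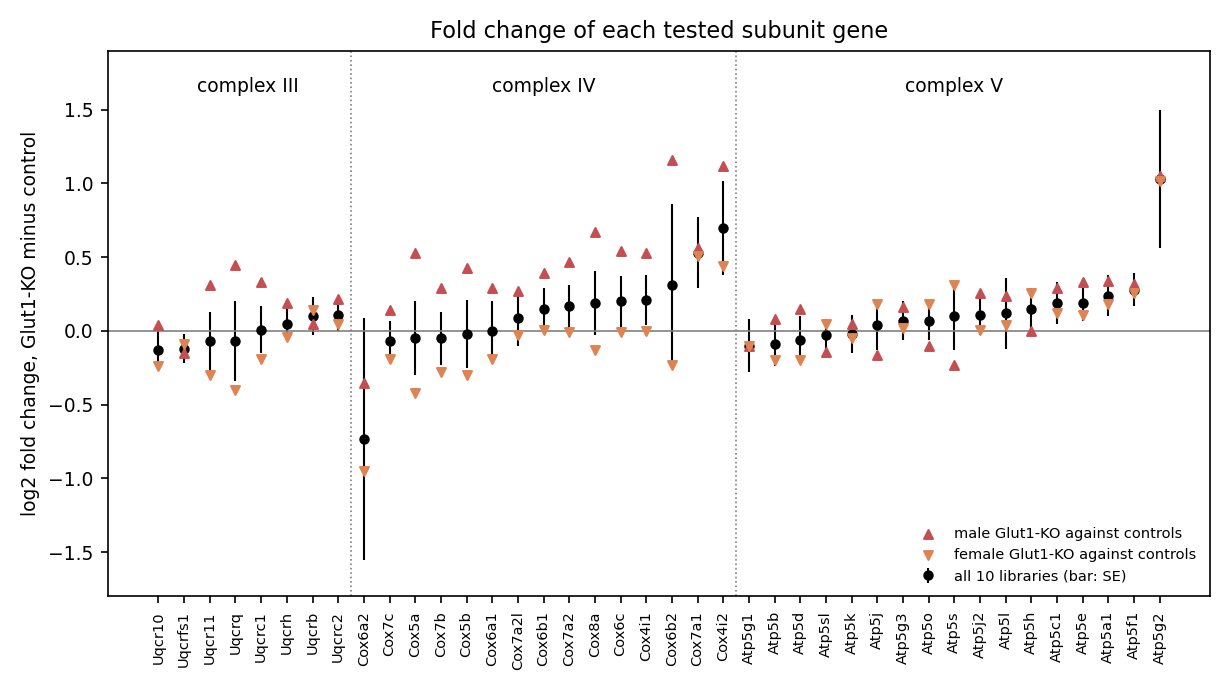
Log2 fold change of each of the 40 tested genes, Glut1-KO minus control (y axis), ordered within complexes III, IV and V (x axis). Black points are the limma estimates over all 10 libraries with bars of 1 SE, red triangles use the 2 male Glut1-KO libraries and orange triangles the 3 female ones, all against the same 5 controls; the red points of complex IV lie mostly above the orange ones.

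Summed over its members, complex III averaged 627 ± 29.4 CPM in controls (SD, n = 5) and 640 ± 75.1 CPM in Glut1-KO (SD, n = 5). Its Control libraries gave 670, 592, 625, 611 and 637 CPM. Its Glut1KO libraries gave 658, 563, 561, 723 and 697 CPM. Both extremes were Glut1-KO libraries, with replicates 4 and 5 above every control, replicates 2 and 3 below every control and replicate 1 inside the control range.

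Complex IV averaged 1123 ± 81.3 CPM in controls and 1242 ± 276 CPM in Glut1-KO (SD, n = 5 each). Its Control libraries gave 1241, 1161, 1034, 1070 and 1106 CPM. Its Glut1KO libraries gave 1170, 933, 1066, 1423 and 1618 CPM. Replicates 4 and 5 again lay above every control, and replicate 2 lay below every control.

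Complex V averaged 3002 ± 311 CPM in controls and 3222 ± 212 CPM in Glut1-KO (SD, n = 5 each). Its Control libraries gave 3194, 3455, 2839, 2773 and 2748 CPM, and its Glut1KO libraries 3099, 2984, 3135, 3416 and 3473 CPM. Control replicate 2 was as high as the highest Glut1-KO libraries, and no Glut1-KO library lay below the control range.

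**Figure D2:**
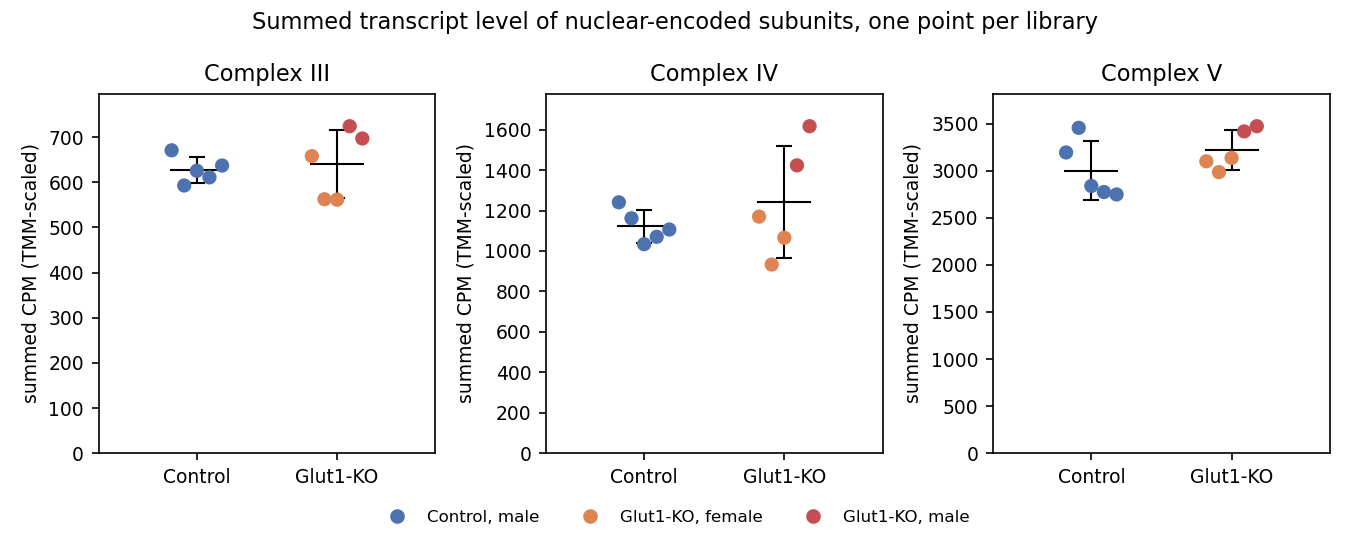
Summed CPM of the members of complexes III, IV and V (y axes, from 0) in each library, Control at left and Glut1-KO at right of each panel. Points are libraries coloured by group and sex, and bars are the mean and SD of 5 libraries; the 2 male Glut1-KO libraries are the highest in complexes III (723 and 697 CPM) and IV (1423 and 1618 CPM).

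The Glut1-KO libraries were then set against the controls by sex. The male and the female comparison share the 5 male controls, and only the male one is free of a sex difference. In the males, the median log2 fold change was 0.20 in complex III (7 of 8 higher), 0.47 in complex IV (14 of 15 higher) and 0.15 in complex V (11 of 17 higher), beside -0.01 for all genes. In the females it was -0.14 in complex III (2 of 8 higher), -0.13 in complex IV (4 of 15 higher) and 0.11 in complex V (13 of 17 higher), beside -0.00 for all genes. No member passed the adjusted threshold in either comparison, against 0.00628% of all genes in males and 0.044% in females. An unadjusted p under 0.05 was reached in males by 2 of 8 complex III, 8 of 15 complex IV and 0 of 17 complex V members, against 9.51% of all genes. In females it was reached by 1 of 40 members, against 13.9% of all genes. Whether the male and female libraries labelled Glut1KO differ from each other by sex, mouse or Glut1 cannot be told apart.

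Medians of other lists were also read in the male and the female comparison, and differences between these comparisons were not tested. Some medians were close, with 0.12 in both for complex V assembly factors. For regulators of respiratory chain genes they were 0.10 in males and 0.15 in females. The median log2 fold change of 36 complex I subunits was 0.29 in males and 0.05 in females, and that of 13 genes of mitochondrial mass was 0.23 and -0.17. Epithelial markers (5 of 8 higher over all libraries) had medians of 0.24 in males and -0.02 in females, pericyte and smooth muscle markers -0.17 and 0.47, heart and striated muscle markers -0.35 and 0.29, and leukocyte markers 0.04 and -0.09. Ciliated cell markers (7 of 7 tested lower over all libraries) summed to 16.8 to 504 CPM in controls and 27.3 to 182 CPM in Glut1-KO, with a median of -1.95 in males and -0.45 in females. Club cell markers (4 of 5 lower) summed to 2022 to 11749 CPM and 3131 to 9352 CPM, with medians of -1.46 and -0.09. Endothelial markers (7 of 7 higher) summed to 101 to 374 CPM and 154 to 509 CPM, with medians of 0.09 and 0.98. Fibroblast markers (5 of 6 lower) summed to 83.6 to 352 CPM and 51.1 to 397 CPM, with medians of 0.61 and -0.48. They were highest in Glut1KO replicate 5 and lowest in Glut1KO replicate 3. Erythroid markers (4 of 5 lower) summed to 237 to 1461 CPM and 189 to 750 CPM, with medians of 0.24 and -1.03. Of the genes of all these marker lists, only the muscle gene Sln was at 0 in all libraries, none was called, and their part in the members' values was not tested. In bulk libraries, fewer cells of a type and less RNA per cell cannot be told apart.

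**Figure D3:**
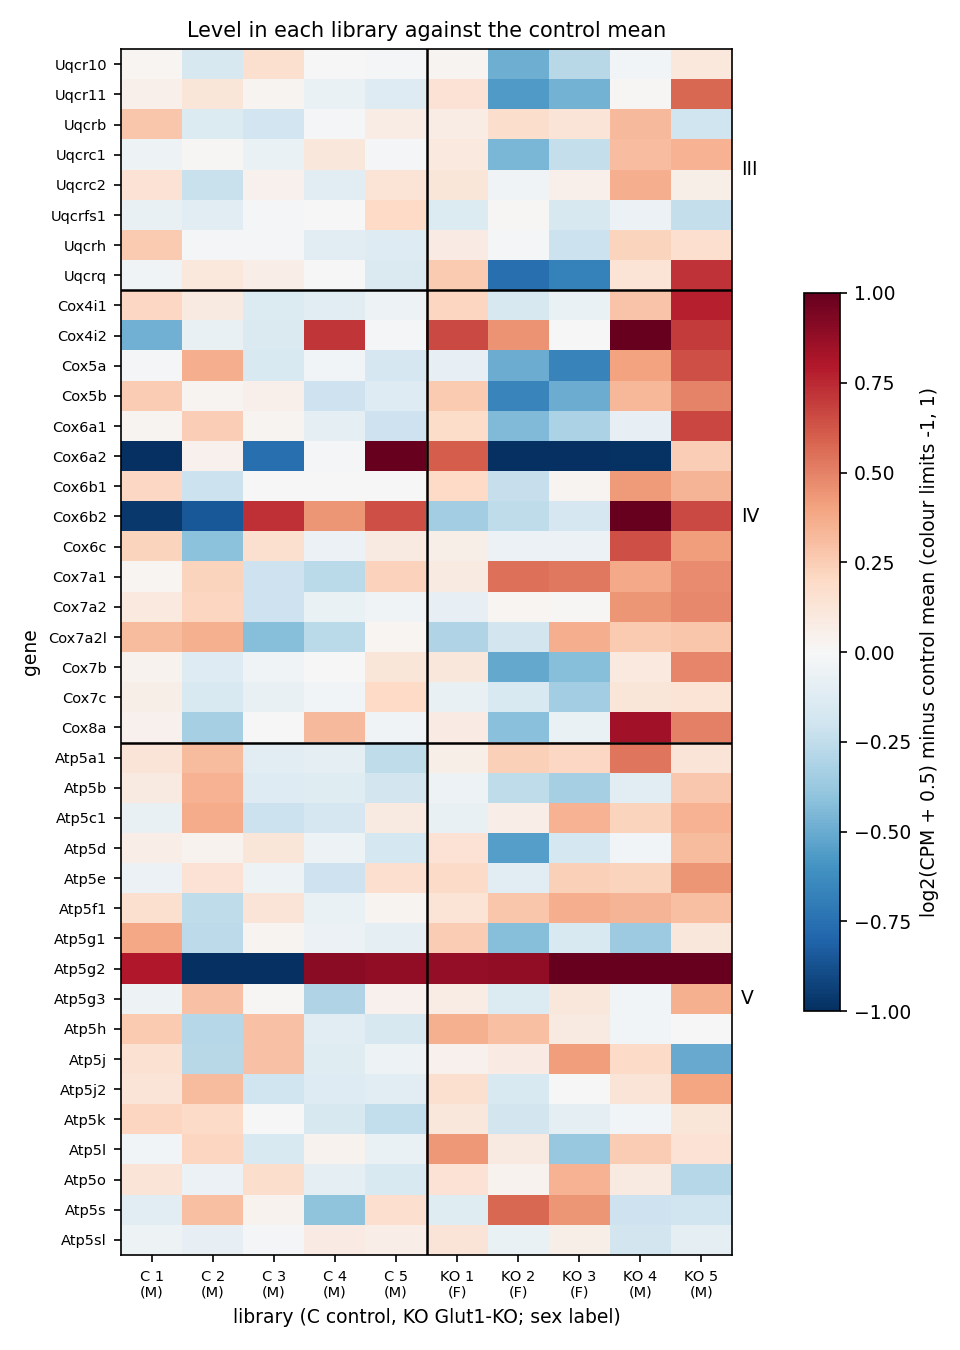
Level of each of the 40 tested genes (y axis, complexes III, IV and V from top to bottom) in each library (x axis, C control and KO Glut1-KO with sex), as log2(CPM + 0.5) minus the control mean, with colours limited to -1 and 1. Glut1KO replicate 5 is red through most of complex IV, Glut1KO replicates 2 and 3 are blue in several small subunits of complexes III and IV, and Control replicates 2 and 3 are blue for Atp5g2.

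In complex III, the core proteins are Uqcrc1 and Uqcrc2, and Uqcrfs1 is the Rieske iron-sulfur protein that carries electrons towards cytochrome c1. Uqcrc2 measured 169, 131, 157, 142 and 168 CPM in Control replicates 1 to 5 and 166, 149, 158, 197 and 159 CPM in Glut1KO replicates 1 to 5. Glut1KO replicate 4 was the highest library and the groups otherwise overlapped, with a log2 fold change of 0.11 (SE 0.11, limma adjusted p = 0.831). This value was 0.05 without Glut1KO replicate 4 and 0.15 without Control replicate 1.
Uqcrfs1 measured 85.2, 82.5, 88.4, 89.8 and 103 CPM in controls and 81.5, 90.3, 79.9, 86.0 and 75.7 CPM in Glut1-KO. Its 3 lowest libraries were Glut1-KO and its highest a control, and the log2 fold change was -0.12 (SE 0.10, limma adjusted p = 0.792). Without Control replicate 5, the highest library, it was -0.07, and without Control replicate 2 it was -0.15.

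Of the small subunits of complex III, Uqcr10 measured 47.0, 41.5, 52.0, 46.5 and 46.0 CPM in controls and 47.5, 33.0, 38.2, 45.5 and 50.1 CPM in Glut1-KO. Glut1KO replicates 2 and 3 were the only libraries under the control range, and the log2 fold change was -0.13 (SE 0.13, limma adjusted p = 0.830). It was -0.04 without Glut1KO replicate 2, 0.04 in males and -0.24 in females.
Uqcrq, which sits next to cytochrome b, measured 28.0, 30.9, 30.1, 28.7 and 25.9 CPM in controls and 34.4, 16.8, 17.8, 31.6 and 47.7 CPM in Glut1-KO. Its Glut1-KO libraries thus lay on both sides of a narrow control range, and the log2 fold change was -0.07 (SE 0.27).
Uqcr11 repeated this order, from 26.7 and 28.5 CPM in Glut1KO replicates 2 and 3 to 59.5 CPM in replicate 5, with controls at 36.3 to 43.4 CPM. Uqcrq and Uqcr11 are described because of this spread and were chosen after their values were seen.

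Uqcrh, the hinge protein, had the highest level per length in complex III, with a mean of 352 TPM. It measured 160, 132, 132, 124 and 122 CPM in controls and 141, 132, 115, 156 and 150 CPM in Glut1-KO. Control replicate 1 stood apart from the other controls, and the log2 fold change was 0.05 (SE 0.12). It was 0.11 without Control replicate 1, 0.11 without Glut1KO replicate 3 and 0.00 without Glut1KO replicate 4. The other complex III members, Uqcrb and Uqcrc1, had log2 fold changes of 0.10 and 0.01.

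In complex IV, Cox4i1, the ubiquitous isoform of subunit 4, was the most abundant transcript per length, with a mean of 613 TPM. It measured 313, 289, 247, 252 and 263 CPM in controls and 316, 243, 259, 331 and 467 CPM in Glut1-KO. Glut1KO replicate 5 was far above the rest, and the log2 fold change was 0.21 (SE 0.17, limma adjusted p = 0.785) over all libraries, 0.53 in males and 0.00 in females, and 0.08 without Glut1KO replicate 5.

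Cox4i2, the isoform of subunit 4 known from lung and hypoxia, measured 1.69, 2.41, 2.27, 4.53 and 2.53 CPM in controls and 4.33, 3.68, 2.56, 7.11 and 4.48 CPM in Glut1-KO. The highest library was Glut1KO replicate 4 and the lowest Control replicate 1, with Control replicate 4 among the Glut1-KO values. The log2 fold change was 0.70 (SE 0.32, limma adjusted p = 0.658) over all libraries, 1.12 (SE 0.38, limma adjusted p = 0.457) in males and 0.44 (SE 0.34, limma adjusted p = 0.569) in females. Its share of subunit 4 transcripts per length ran from 1.05% to 3.42% in controls and from 1.85% to 4.06% in Glut1-KO, so that Cox4i1 made up nearly all of them in each library. Pericyte and smooth muscle markers, with 6 of 8 higher and 0 at 0 in all libraries, summed to 56.1 to 110 CPM in controls and 61.9 to 157 CPM in Glut1-KO, and their part in the Cox4i2 level was not tested.

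Cox7a1, the heart and muscle isoform of subunit 7A, measured 1.32, 1.60, 1.06, 0.992 and 1.61 CPM in controls and 1.41, 2.14, 2.09, 1.84 and 1.99 CPM in Glut1-KO. Glut1-KO replicates 2 to 5 lay above every control and replicate 1 lay within the control range. The log2 fold change was 0.53 (SE 0.24, limma adjusted p = 0.649), with 0.56 in males and 0.51 in females. The 2-sided exact permutation test gave p = 0.0238 unadjusted, and it gave p = 0.0397 for Atp5g2 and p = 0.0714 for Cox4i2. Cox7a1 was 2.50% to 3.93% of subunit 7A transcripts per length in controls and 3.23% to 4.95% in Glut1-KO. Its ubiquitous partner Cox7a2 measured 61.8 to 82.8 CPM in controls and 67.3 to 100 CPM in Glut1-KO, with a log2 fold change of 0.17 (SE 0.14).

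Cox6a2, the heart and muscle isoform of subunit 6A, measured 0.582, 2.47, 1.21, 2.34 and 12.2 CPM in controls and 3.89, 0.499, 0.741, 0.950 and 2.92 CPM in Glut1-KO. Control replicate 5 was far above all other libraries. The log2 fold change was -0.73 (SE 0.82, limma adjusted p = 0.854), the largest in size in complex IV in this fit. It was -1.06 in edgeR and in DESeq2. Leaving out single libraries, it ran from -1.18 without Control replicate 1 and -1.11 without Glut1KO replicate 1 to -0.37 without Glut1KO replicate 2 and -0.12 without Control replicate 5, and it was -0.35 in males and -0.95 in females. In that library Cox6a2 was 12.7% of subunit 6A transcripts per length, against 0.591% to 2.52% in the other controls. Heart and striated muscle markers summed to 9.16 CPM in Control replicate 5, within the 6.23 to 32.8 CPM of all controls beside 6.66 to 11.7 CPM in Glut1-KO. Most of the highest sum was Tnnt2, at 28.3 CPM in Control replicate 3. The heart genes Tnni3 (2.12 CPM) and Myh6 (1.2 CPM) each had their highest level of all 10 libraries in Control replicate 5, and none of the other markers did. Tnnt2 was at 2.29 CPM there, Ttn at 1.71 CPM with a highest library of 2.76 CPM, and Acta1 at 0.94 CPM with a highest library of 1.8 CPM. Of these 11 markers, Sln was at 0 in all libraries, and the part of such cells in the Cox6a2 level was not tested. The ubiquitous Cox6a1 measured 86.1 to 118 CPM in controls and 73.0 to 158 CPM in Glut1-KO, with a log2 fold change of 0.00 (SE 0.20).

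Cox6b2, the testis isoform of subunit 6B, measured 0.734, 0.835, 3.48, 2.77 and 3.25 CPM in controls and 1.39, 1.52, 1.64, 4.93 and 3.30 CPM in Glut1-KO. Control replicates 1 and 2 were the lowest and Glut1KO replicate 4 the highest, and the log2 fold change was 0.31 (SE 0.55). It was 1.16 in males and -0.23 in females. Leaving out single libraries, it was 0.01 without Control replicate 1, 0.01 without Control replicate 2, 0.05 without Glut1KO replicate 4 and 0.17 without Glut1KO replicate 5, and it was 0.54 without Control replicate 3, 0.52 without Control replicate 5 and 0.48 without Glut1KO replicate 1. It stayed at 0.339% to 1.92% of subunit 6B transcripts per length. Cox6b1 measured 103 to 138 CPM in controls and 102 to 161 CPM in Glut1-KO, with a log2 fold change of 0.15 (SE 0.14).

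**Figure D4:**
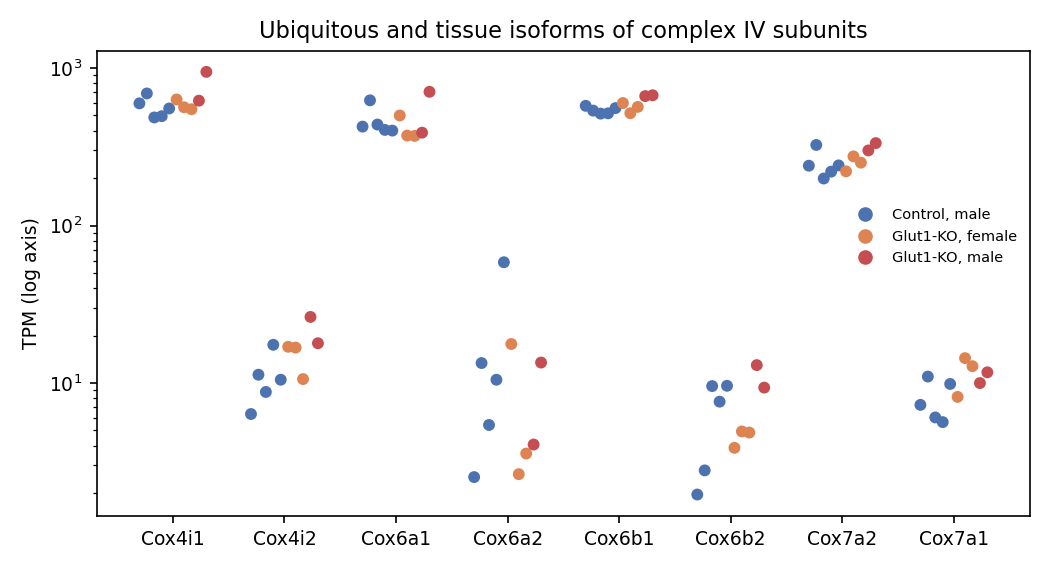
TPM (log axis) of the ubiquitous and the tissue isoform of subunits 4, 6A, 6B and 7A of complex IV, 1 point per library coloured by group and sex, with Control replicates 1 to 5 and Glut1KO replicates 1 to 5 from left to right within each gene. In every library the ubiquitous isoform is the higher of each pair, and Cox6a2 is highest in Control replicate 5.

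The complex IV genes other than the tissue isoforms were counted next. All 11 such genes were higher in the male comparison, by a median of 0.43, and 2 of 11 were higher in the female one, with a median of -0.13. Cox8a, the ubiquitous isoform of subunit 8 and the only one with counts, measured 94.3, 72.8, 92.2, 115 and 89.3 CPM in controls and 97.0, 68.5, 87.6, 165 and 130 CPM in Glut1-KO. Only Glut1KO replicates 4 and 5 exceeded the control range. The log2 fold change was 0.19 (SE 0.22) over all libraries, 0.67 (SE 0.19, limma adjusted p = 0.428) in males and -0.13 in females. With single libraries left out, it ran from 0.03 without Glut1KO replicate 4 to 0.34 without Glut1KO replicate 2.
Cox7b, the ubiquitous isoform of subunit 7B, measured 98.8, 88.0, 94.1, 96.3 and 105 CPM in controls and 104, 67.3, 71.5, 103 and 135 CPM in Glut1-KO. Glut1KO replicates 2 and 3 lay below every control and replicate 5 above, and the log2 fold change was -0.05 (SE 0.18). It was 0.29 in males and -0.28 in females. Its sign depended on single libraries, from -0.18 without Glut1KO replicate 5 to 0.06 without Glut1KO replicate 2.
Cox5a and Cox5b, on the matrix side, had male log2 fold changes of 0.53 and 0.43 and female ones of -0.42 and -0.30. For Cox6c it was 0.54 and -0.01. Cox7a2l had 0.27 and -0.03, and Cox7c had 0.14 and -0.19.

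Complex V was described by its parts, the catalytic F1 head, the membrane c-ring, the peripheral stalk that holds the head still, and small membrane subunits. In F1, Atp5a1, subunit alpha, was the most abundant transcript per length of all members, with a mean of 899 TPM. It measured 876, 996, 746, 754 and 670 CPM in controls and 835, 943, 926, 1163 and 874 CPM in Glut1-KO. Glut1KO replicate 4 was the highest library, Control replicate 2 the second, and the log2 fold change was 0.24 (SE 0.14, limma adjusted p = 0.723).
Atp5b, subunit beta with the catalytic sites, was next per length, with a mean of 690 TPM, and had a log2 fold change of -0.09 (SE 0.15). The exon lengths used were 3135 bases for Atp5a1 and 4237 bases for Atp5b, and the order of these genes per length depends on them. Of the central stalk, subunit gamma (Atp5c1) had 0.19, subunit delta (Atp5d) had -0.06 and subunit epsilon (Atp5e) had 0.19.

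In the peripheral stalk, all 4 genes had positive log2 fold changes, with a median of 0.11, and 4 of 4 were positive in females but 1 of 4 in males. Atp5f1, subunit b, measured 202, 151, 197, 172 and 184 CPM in controls and 198, 218, 232, 228 and 222 CPM in Glut1-KO. Glut1KO replicates 2 to 5 lay above every control, and replicate 1 lay below Control replicate 1. The log2 fold change was 0.28 (SE 0.11, limma adjusted p = 0.574), with 0.32 in males and 0.26 in females, and the 2-sided exact permutation test gave p = 0.0159 unadjusted, where the smallest that 5 against 5 can give is 0.00794. This was the lowest adjusted p among the members. Atp5h, Atp5j and Atp5o, subunits d, F6 and OSCP, had 0.15, 0.04 and 0.07.

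The c-ring protein is made from Atp5g1, Atp5g2 and Atp5g3, whose products differ in the targeting peptide and give one mature protein. Atp5g2 (GENCODE M21, chr15:102662864-102672352, minus strand) measured 83.3, 15.7, 23.1, 89.0 and 88.3 CPM in controls and 87.6, 88.4, 108, 98.0 and 95.5 CPM in Glut1-KO. Control replicates 2 and 3 thus stood apart, at a mean of 19.4 CPM against 86.8 CPM in the other 3 controls, a ratio of 4.48, and the remaining controls lay next to the Glut1-KO libraries. Control replicate 2 has 844 counts of the gene and replicate 3 has 937, so that the values do not rest on few counts.

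The log2 fold change of Atp5g2 was 1.03 (SE 0.47, limma adjusted p = 0.646) with all libraries and 0.13 (SE 0.12, limma adjusted p = 0.886) without Control replicates 2 and 3, an alternative chosen after these counts were seen. It was 0.61 without Control replicate 2 alone and 0.78 without Control replicate 3 alone. Without Control replicate 1, 4 or 5 it was 1.24, 1.26 or 1.27. In edgeR and in DESeq2 it was 0.68 with all libraries. In the limma fit it was the largest positive value of all tested members, and in edgeR and DESeq2 Cox4i2 was higher, at 0.72 and 0.73. Of 15922 genes tested, 2 had both libraries more than 2-fold under each of the other 8, Atp5g2 and Bend5. This pair of libraries was chosen from Atp5g2 itself. Among 4784 genes with a mean of at least 50 CPM, 59 (1.23%) had a control SD of log2 CPM at least that of Atp5g2. The protein-coding genes on either side of Atp5g2 did not share the gap: ATF7 (symbol as in the files, by its Ensembl identifier) measured 86.2, 72.8, 81.7, 90.0 and 85.7 CPM in controls, and Calcoco1 measured 82.1, 60.2, 101, 98.0 and 103 CPM. Copies of Atp5g2 elsewhere in the genome, Gm10175 and Gm10231, held at most 50 and 10 counts in any library. These copies share 561 of the 1587 windows of 85 bases in Atp5g2 transcripts, or 35.3%, the largest share of any member. How reads that match several places were counted is not given in the sources used here, so the Atp5g2 level is uncertain too. These 2 libraries carry different second numbers in their names.

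The other c-ring genes were read beside it. Atp5g3 measured 165, 209, 172, 138 and 176 CPM in controls and 180, 155, 184, 167 and 218 CPM in Glut1-KO, with a log2 fold change of 0.07 (SE 0.13). Atp5g1 measured 21, 13.2, 16.2, 15.3 and 14.9 CPM in controls and 19.1, 11.7, 14.3, 12.3 and 17.3 CPM in Glut1-KO. Its log2 fold change was -0.10 (SE 0.18). That value was -0.00 without Control replicate 1 and -0.20 without Glut1KO replicate 1. Control replicate 2 was high for Atp5g3 and low for Atp5g1, and neither gene showed the gap of Atp5g2. Per length, Atp5g2 was 8.65% and 14.4% of c-ring transcripts in Control replicates 2 and 3, 38.4% to 44.5% in the other controls and 35.6% to 42.6% in Glut1-KO. The summed c-ring level was 238 and 212 CPM in Control replicates 2 and 3, 242 to 279 CPM in the other controls and 256 to 330 CPM in Glut1-KO.

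**Figure D5:**
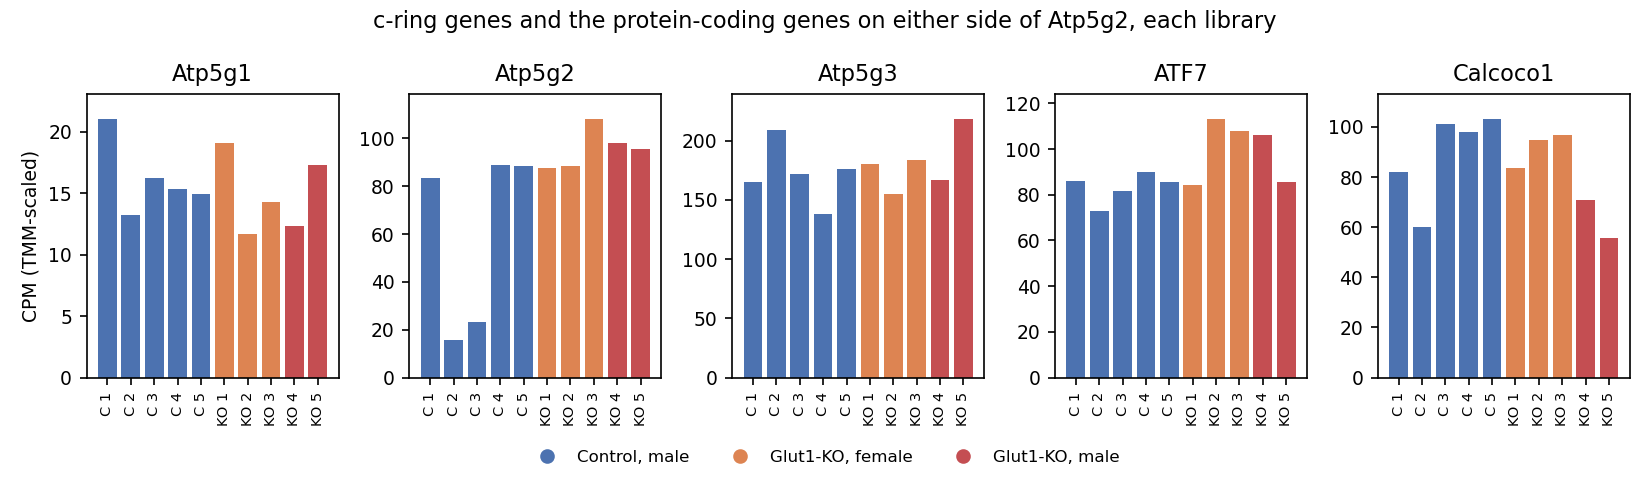
CPM (y axes, from 0) of the c-ring genes Atp5g1, Atp5g2 and Atp5g3 and of ATF7 and Calcoco1, the protein-coding genes on either side of Atp5g2, in each library (x axes, C control and KO Glut1-KO). Bars are single libraries coloured by group and sex; Atp5g2 stands at 15.7 and 23.1 CPM in Control replicates 2 and 3 and at 83.3 CPM or more in the other 8.

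The small membrane subunits Atp5j2 (subunit f), Atp5k (subunit e) and Atp5l (subunit g) had log2 fold changes of 0.11, -0.02 and 0.12. Atp5s and Atp5sl had 0.10 and -0.03. Several members share sequence with processed copies, whose reads the counting could split, and these members are uncertain. Atp5l had 57 to 118 counts and its copy Gm10221 had 856 to 1485, or 89.2% to 94.2% of both. Copies held 65.7% to 71.6% for Cox7c (Gm12338), 59.5% to 63.1% for Atp5h (Gm10250), 56.9% to 66.2% for Atp5g1 (Gm10039) and 16.5% to 28.0% for Cox7a2l (Gm6969). With the copies' counts added, an alternative chosen after the counts were seen, the log2 fold change became -0.01 for Atp5l, -0.08 for Cox7c, 0.15 for Atp5h, -0.05 for Atp5g1, 0.12 for Cox7a2l, 0.12 for Uqcrb and 0.28 for Atp5f1, and no member was called.

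Other genes of the respiratory chain were read from lists chosen by function, with 0 called in each. Subunits that the name rule misses had 4 of 5 genes higher and a median of 0.22. Among these, Cyc1 (cytochrome c1 of complex III) had a log2 fold change of 0.22 (SE 0.13), Ndufa4 (complex IV) had 0.18 (SE 0.12), and Usmg5 and 2010107E04Rik (complex V) had 0.25 (SE 0.20) and 0.31 (SE 0.17). Atpif1, the inhibitor of complex V, had -0.05 (SE 0.15). Cycs, cytochrome c, had 0.10 (SE 0.25). In the male comparison Usmg5 had 0.72 (SE 0.16, limma unadjusted p = 0.00238 and adjusted p = 0.354), so that this complex V subunit, unlike the 17 tested members of complex V, reached an unadjusted p under 0.05 there. Cyc1 had 0.47 (SE 0.13, limma unadjusted p = 0.00644) and Cycs had 0.66 (SE 0.21, limma unadjusted p = 0.0144) in males, and Ndufa4, 2010107E04Rik and Atpif1 had 0.29, 0.30 and 0.20. In females Usmg5 had -0.04, Cyc1 0.05 and Cycs -0.27, and Ndufa4, 2010107E04Rik and Atpif1 had 0.11, 0.33 and -0.21.

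Assembly factors had 3 of 5 higher for complex III (median 0.03), 14 of 23 for complex IV (median 0.05) and 2 of 4 for complex V (median 0.06). Complex I subunits, which feed electrons to complex III through ubiquinol, had 31 of 36 higher and a median of 0.18, and complex II had 3 of 4 and 0.03. Regulators of respiratory chain genes had 9 of 13 higher and a median of 0.08, and genes of mitochondrial mass 7 of 13 and 0.02. The lowest adjusted p in the complex I list was 0.436, for Ndufb5, with a log2 fold change of 0.33 (SE 0.10, limma).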

How the data were processed

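RNA of 10 libraries was measured (5 Control, 5 Glut1KO). The authors trimmed reads with cutadapt and aligned them to mm10 with HISAT2, and the submitters' processing notes name featureCounts 1.4.4. The authors deposited raw counts per Ensembl gene, without normalization. Strand and multi-mapping settings are not given in the sources used here. A deposited table of log2 values was not used.

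Counts were scaled by TMM (edgeR 4.0.16), filtered with filterByExpr (minimum count 10) and fitted with voom and limma 3.58.1 on group over 15922 genes, with Benjamini-Hochberg adjustment and a threshold of 0.05. The deposited unit is counts, for which edgeR's quasi-likelihood test and DESeq2 1.42.0 were alternatives; limma was the main test because the study's methods name it. The procedure was checked on simulated data. TPM used GENCODE M21 exon lengths, merged over all annotated exons of a gene, which can exceed the length of a single transcript. Rankings and shares per length depend on these lengths. Where the files put 1 symbol on several genes, the gene was read by its identifier (ATF7); no member was affected. Alternatives also covered sex, single libraries, filters and scaling. Named genes were, per complex, the 3 with the smallest p, the largest change, the highest level per length and the isoform pairs. The members and gene lists were chosen with earlier results of these data known.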

Additional observations from a re-analysis of the deposited data

Results flagged for a closer look

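Uqcrh stood at 160 CPM in Control replicate 1, far from the other controls at 122 to 132 CPM. Cox6a2 stood at 12.2 CPM in Control replicate 5, far from the other controls at 0.582 to 2.47 CPM. In 44 groups of 5 values examined for a single library apart from the rest, 2 were found, and chance gives about 2. The low Atp5g2 level of Control replicates 2 and 3 is a pair and is not found by that rule.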

How the results depend on the processing

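Of the members each alternative could test, 0 were called under all 22 alternatives, edgeR, DESeq2, scaling by library totals, other filters, sex, the second name number, single libraries left out and added copies among them, and the lowest adjusted p of a named member was 0.222 (Atp5f1, DESeq2). Genes called among all tested numbered 210 under DESeq2, 3 with sex as a covariate, 1 in males only and 7 in females against all controls, and 0 to 1 when 1 library was left out (1 without Control replicate 3). The complex III median turned from -0.03 to 0.05 under edgeR and DESeq2, and the Atp5g2 log2 fold change fell from 1.03 to 0.68. The complex III median became 0.20 with sex as a covariate and in males only. The complex IV median became 0.47 with sex as a covariate and in males only, and -0.13 in females. Summed levels in males gave log2 ratios of 0.18 in complex III, 0.44 in complex IV and 0.20 in complex V. In females these ratios were -0.08, -0.09 and 0.03. The complex IV ratio over all libraries was 0.15, with 0.03 without Glut1KO replicate 5 and 0.23 without Glut1KO replicate 2. With the replicate block, 0 genes were called and the medians were -0.01, 0.15 and 0.11; same-numbered libraries correlated at -0.132 to 0.197, so the numbers do not pair them, and the block changed no call. With single libraries left out, medians ran from -0.07 to 0.08 (complex III), 0.04 to 0.21 (complex IV) and 0.04 to 0.15 (complex V). A mean TPM of at least 20 left out the tested members Atp5g1, Atp5l, Atp5s, Cox4i2, Cox6a2, Cox6b2 and Cox7a1, which have no value there, and gave medians of -0.02, 0.09 and 0.09, and summed levels were recomputed only for library totals, the sexes and libraries left out. Depth was at least 35.3 M counts, and what it limits was not tested. Counts were low in some tested members, among them Cox4i2, Cox6a2, Cox6b2, Cox7a1 and Atp5l. Intervals of small differences stay wide at 5 libraries a group.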
